A study of Homo sapiens with 6 samples.

Results

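The mitochondrial respiratory chain is built from proteins of 2 genomes, and the genes described here are the nuclear share. They were taken from the deposited gene table as every protein-coding gene whose symbol begins with NDUF, UQCR or ATP5, or with COX followed by a digit between 4 and 8, together with SDHA, SDHB, SDHC, SDHD, CYC1 and CYCS. This rule uses names alone and found 101 of 58735 genes. By textbook assignment they were 37 structural subunits and 8 assembly factors of complex I, 4 subunits of complex II, 10 of complex III, 19 of complex IV, 19 of complex V, cytochrome c, and 3 genes that match by name only. Those 3 are the read-through genes NDUFC2-KCTD14 and ATP5MF-PTCD1 and ATP5S, which is not an ATP synthase subunit. NDUFA4 and its paralog NDUFA4L2, first described in complex I, are counted in complex IV, where NDUFA4 is now placed.

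The libraries were 6 bulk RNA sequencing samples of NCI-N87, an established human gastric carcinoma line. In 3 of them the cells carried the plasmid PLVX-IRES-Puro-EGLN3 and in 3 the empty plasmid PLVX-IRES-Puro, and both groups went through 7 days of puromycin selection. The labels give 1 day with the plasmid for EGLN3 replicates 1 and 2 and for the 3 controls, but 5 days for EGLN3 replicate 3. The treatment protocol, worded alike for all 6 samples, gives 1 day, so the time of EGLN3 replicate 3 is uncertain. All came from 1 cell line, and nothing in the labels says that replicates were separate cultures, so p-values here reflect variation among the 6 libraries, and that variation may be of technical origin.

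Complexes I and II pass electrons from NADH and succinate to ubiquinone, complex III passes them on to cytochrome c, and complex IV uses them to reduce oxygen. Complexes I, III and IV pump protons across the inner mitochondrial membrane, and complex V, the ATP synthase, lets them back to make ATP. EGLN3 is a prolyl hydroxylase that uses oxygen and is best known for marking hypoxia-inducible factor (HIF) subunits for degradation. HIF is known to alter the chain at a few points, among them COX4I2, which can take the place of COX4I1, and NDUFA4L2.

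EGLN3 itself was at 481, 1640 and 1717 CPM (counts relative to library size, scaled by the trimmed mean of M values) in EGLN3 libraries 1 to 3 and at 0.582, 0.702 and 0.565 CPM in the controls. The groups did not overlap, with a log2 fold change of 11 (SE 0.72, adjusted p = 0.031, edgeR). Library totals were 15157265 to 16767383 counts. The 8 gastric and epithelial markers summed to 33265 to 53102 CPM in EGLN3 libraries and 38316 to 46924 CPM in controls, most of it from KRT8, KRT18, KRT19 and ERBB2. The gastric marker TFF1 was nearly absent, with 8, 0 and 1 counts in EGLN3 libraries and 2, 3 and 5 in controls. The lists of fibroblast, leukocyte, endothelial, muscle and testis markers each summed to no more than 5.52 CPM in any library.

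The libraries differed among themselves in a way that crossed the groups. The first principal component of the tested genes, computed without the respiratory chain, held 69.8% of the variance. Its scores were 59.07, -23.16 and -45.59 for EGLN3 replicates 1 to 3 and -36.04, 11.46 and 34.27 for control replicates 1 to 3. EGLN3 replicate 1 and control replicate 3 therefore lay at one end, and EGLN3 replicate 3 and control replicate 1 at the other.

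Levels between genes are given as deposited FPKM (fragments per unit of merged exon length and of library size), as the mean of 3 libraries. ATP5F1B, the catalytic beta subunit of ATP synthase, was the highest of all, with 329 ± 39.1 FPKM in EGLN3 libraries and 344 ± 39.2 FPKM in controls (SD, n = 3 each). NDUFS5, an accessory subunit, led complex I with 286 ± 129 FPKM in EGLN3 libraries and 310 ± 74.5 FPKM in controls. CYC1, the cytochrome c1 of complex III, had 175 ± 68.4 FPKM in EGLN3 libraries and 206 ± 35.5 FPKM in controls. COX8A, a small subunit of complex IV, had 189 ± 138 FPKM in EGLN3 libraries and 191 ± 61.6 FPKM in controls. These spreads are wide enough that COX8A and CYC1 cannot be ordered against each other. Cytochrome c, encoded by CYCS, stood at 66.8 ± 16.2 FPKM in EGLN3 libraries and 65.4 ± 10.8 FPKM in controls.

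Complex II was the lowest of the 5 complexes in median level, at 16.7 FPKM over all 6 libraries, against 24.3 for complex I subunits, 37.0 for complex III, 45.5 for complex IV and 35.3 for complex V. Its members were SDHB at 18.8, SDHA at 17.6, SDHD at 15.7 and SDHC at 6.89 FPKM. SDHA and SDHB form the catalytic head, and SDHC and SDHD anchor it in the membrane. When counts were instead divided by the length of 1 principal transcript, a choice made after seeing the data, the member median was 60.5 in place of 25.1 and complex II was still lowest of the 5 at 35.5. SDHA then stood above SDHB, at 62.0 against 40.0 on that scale. The order within a complex therefore depends on the length used, and over all 101 genes the 2 scales had a rank correlation of 0.89.

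**Figure D1:**
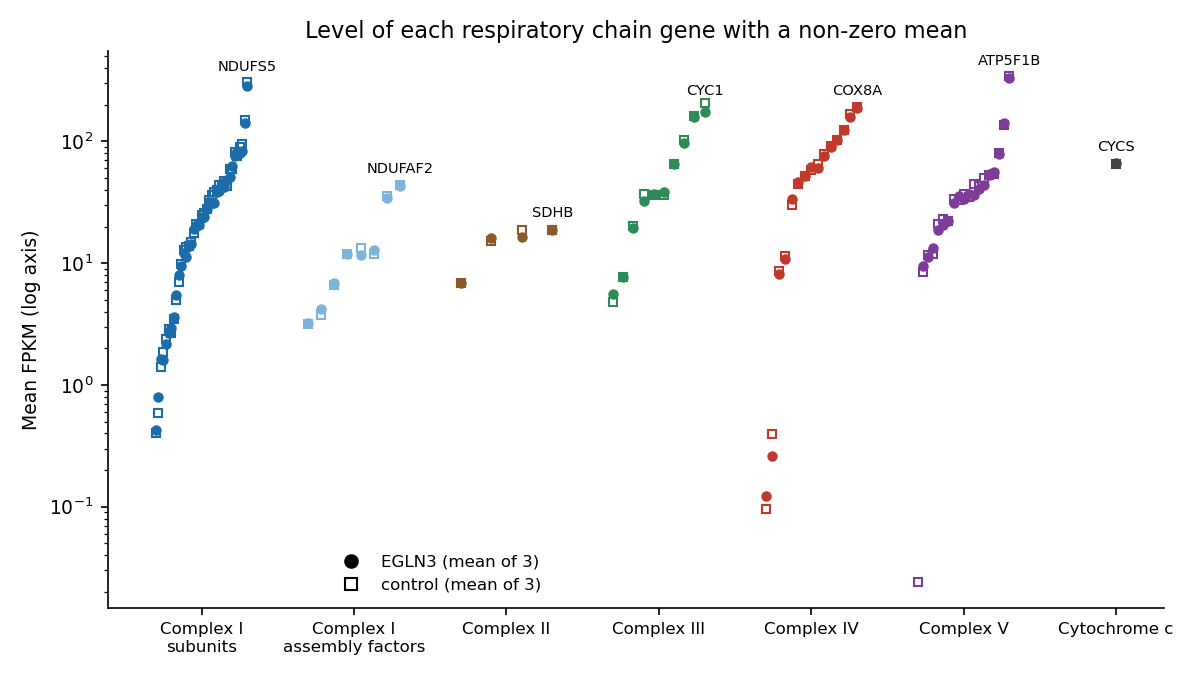
Mean FPKM on a log axis for each gene of a complex with a non-zero mean, ordered by level within its complex, with filled circles for the mean of 3 EGLN3 libraries and open squares for the mean of 3 controls (a mean of 0 cannot be drawn). The circles and squares of a gene lie close together, and the named genes are the highest of each complex.

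Several of the lowest complex I genes share most of their transcript with another annotated gene on the same strand, where a read that fits both genes may be left uncounted. NDUFV2, a core subunit of the NADH-oxidising module, had 13 to 28 counts per library, and 82.9% of its principal transcript lay in exons of the transcript AP005263.1, itself at 0 counts. The accessory subunit NDUFA7 had 10 to 25 counts with 75.9% shared. NDUFB8, another accessory subunit, had 75 to 336 counts with 71.7% shared. The 5 complex I subunits sharing at least 20% of the principal transcript had a median of 123 counts and 2.26 FPKM. The other 32 had a median of 1096 counts and 30.2 FPKM. In complexes II to V the genes sharing at least 20% were not all low. COX8A had 190 FPKM, COX6A1 51.9 and ATP5MF 46.9, while SDHD had 15.7, ATP5PO 12.6, COX6B2 8.38 and UQCR11 7.74. Their levels may be undercounted as well. A named pseudogene of NDUFV2 took 216 counts over the 6 libraries, more than NDUFV2 itself. The part of shared exons and of the pseudogene in the low complex I values was not tested, and the rank of NDUFV2 is uncertain. Named pseudogenes of SDHA took 3617 counts over the 6 libraries, those of COX6A1 587, those of UQCRFS1 414, those of CYCS 141 and those of ATP5MC1 131. The levels of these genes are therefore uncertain too, but not to the degree of NDUFV2. ATP5MC1 itself had 5088 counts summed over EGLN3 libraries and 5523 over controls, and COX6A1 had 611 to 1815 counts per library.

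Where a complex IV subunit has an alternative form, the common one carried nearly all counts in NCI-N87, except in the pair of COX6B1 and COX6B2. COX4I2, COX6A2, COX7B2 and COX8C, the lung, muscle or testis forms of complex IV subunits, had 0 counts in all 6 libraries. For COX4I2 a count of 0 allows up to 0.0454%, 0.0759% and 0.0929% of the counts of COX4I1 and COX4I2 together in EGLN3 libraries 1 to 3. In controls 1 to 3 it allows up to 0.0736%, 0.0566% and 0.0502%, taking 3 counts as the limit and covering counting error only. COX4I1 in the same libraries had 435, 234 and 202 CPM with EGLN3 and 237, 338 and 375 CPM in controls.

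NDUFA4L2 had 3, 12 and 2 counts in EGLN3 libraries and 3, 6 and 4 in controls, while its paralog NDUFA4 was at 246, 138 and 116 CPM in EGLN3 libraries and 122, 167 and 192 CPM in controls. COX7A1, the muscle form of subunit 7A, had 0, 4 and 9 counts in EGLN3 libraries and 9, 5 and 6 in controls. In both pairs the groups overlapped, and none of these minor forms reached the level needed for the test. COX6B2, a testis form, was the exception among the minor complex IV forms. It made up 5.33% ± 1.54 of the COX6B1 and COX6B2 FPKM sum in EGLN3 libraries and 5.07% ± 0.902 in controls (SD, n = 3 each). Its merged exon length is 3815 bases against 936 for COX6B1, so its share of plain counts was larger. UQCRHL, a near copy of the hinge protein gene UQCRH between which reads may be divided uncertainly, made up 3.79% ± 1.39 of that pair in EGLN3 libraries and 2.99% ± 0.661 in controls.

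The c-ring of ATP synthase is encoded by ATP5MC1, ATP5MC2 and ATP5MC3, which make the same mature protein. Their shares of the FPKM total were 36.0%, 33.1% and 30.9% in EGLN3 libraries and 37.4%, 30.4% and 32.2% in controls, in that order. Per kilobase of principal transcript ATP5MC3 led instead, with 44.7% in EGLN3 libraries and 46.2% in controls. The FPKM share of ATP5MC2 was 32.9%, 32.3% and 34.2% in EGLN3 libraries 1 to 3 against 28.7%, 30.3% and 32.1% in controls 1 to 3. It was above every control share in all 3 EGLN3 libraries, by a margin smaller than the spread of the controls, while the level of ATP5MC2 itself overlapped between groups. The shares of ATP5MC1 and ATP5MC3 overlapped, and the 3 shares are parts of 1 total and not separate observations. The separation was seen among several shares and has no background count beside it, so no group difference is read from it.

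Nuclear respiratory genes are known to carry promoter sites for NRF1, for ETS factors such as GABPA, and for YY1. RefSeq promoters on GRCh38.p14, from 250 bases before to 50 after the start, were at hand for 81 of the 101 genes. The NRF1 motif searched, on both strands, was GCGC and TGCGC with any 1 base between them, and occurred in 18 promoters, or 22.2%, against 8.6% of 15843 promoters of protein-coding genes. CCGGAAG (ETS, both strands) occurred in 21, or 25.9%, against 14.2%. AAGATGGC (YY1, both strands) occurred in 11, or 13.6%, against 3.9%. At least 1 of the 3 was in 41 of the 81 promoters, or 50.6%, against 23.6% of all. The 15843 promoters were not matched to the chain in expression or GC content, so the difference is not shown to be particular to these genes. Matches of different motifs never overlapped, and in 2 promoters matches of 1 motif overlapped each other. A match is a description of letters and not a measured site.

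The bases just before the RefSeq start of 3 genes, chosen because each holds several matches, show how these motifs are arranged, written 5′ to 3′ in the direction of the gene with motif letters in capitals. SDHA has 4 NRF1 matches that recur every 49 bases, SDHD has NRF1 followed by ETS, and UQCR11, a small subunit of complex III, has a pair of ETS and a pair of NRF1 matches. The windows are chr5:218140-218319 on the plus strand, chr11:112086743-112086872 on the plus strand and chr19:1605463-1605592 on the minus strand.
SDHA: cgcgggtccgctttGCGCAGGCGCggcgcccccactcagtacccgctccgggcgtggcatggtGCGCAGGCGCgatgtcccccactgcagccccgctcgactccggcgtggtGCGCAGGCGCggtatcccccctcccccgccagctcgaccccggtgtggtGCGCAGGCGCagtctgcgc
SDHD: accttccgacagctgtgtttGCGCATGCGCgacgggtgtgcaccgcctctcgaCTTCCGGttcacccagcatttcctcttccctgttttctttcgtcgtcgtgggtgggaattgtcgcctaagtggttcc
UQCR11: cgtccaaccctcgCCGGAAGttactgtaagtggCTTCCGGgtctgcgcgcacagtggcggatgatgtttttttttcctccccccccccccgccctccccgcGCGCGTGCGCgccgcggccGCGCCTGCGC

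In the comparison of EGLN3 with control libraries, no gene of the chain passed the test. Of 101 genes, 92 had enough counts to be tested, and 0 of them reached an adjusted p under 0.05 in edgeR, against 1 of all 15726 tested genes (0.00636%), which was EGLN3. None of the 92 had an unadjusted p under 0.05, and DESeq2 and limma-voom also called 0. The fitted difference was positive for 36 and negative for 56, with a median log2 fold change of -0.03 against 0.01 over all tested genes. Single values ran from -0.32 for ATP5IF1 to 0.42 for NDUFA7. In 0 of the 92 did the 3 EGLN3 and 3 control libraries separate in CPM, against 984 of 15726 tested genes (6.26%). In bulk RNA, fewer cells expressing a gene and less RNA per cell cannot be told apart.

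In complex I the median log2 fold change over structural subunits was -0.06, with 13 positive and 24 negative. NDUFV1 (chr11:67605653-67612554, GRCh38), which binds the NADH-oxidising flavin, had 234, 132 and 116 CPM in EGLN3 libraries and 156, 207 and 228 CPM in controls. Its log2 fold change was -0.29 (SE 0.30, adjusted p = 1.0, edgeR), and the EGLN3 replicate 1 library was above every control. NDUFS1, a core subunit and a carrier of iron-sulfur clusters, ran the other way between libraries, with 98.5, 126 and 126 CPM in EGLN3 libraries and 137, 117 and 111 CPM in controls. NDUFB1, an accessory subunit, had 39.6, 21.4 and 16.1 CPM in EGLN3 libraries and 23.1, 36.2 and 34.4 CPM in controls. All 3 genes overlapped between the groups.

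NDUFA7 had the largest positive estimate, 0.42 (SE 0.44), from 1.65, 0.889 and 0.874 CPM in EGLN3 libraries and 0.582, 0.702 and 1.26 CPM in controls. It is among the genes with few counts described above. NDUFA5, another accessory subunit, had 21.0, 14.0 and 13.5 CPM in EGLN3 libraries and 12.3, 12.8 and 17.1 CPM in controls, a log2 fold change of 0.20 (SE 0.23). The 8 assembly factors, which help build the complex without staying in it, had a median of 0.00, with 4 in each direction. NDUFAF1 had 28.1, 18.6 and 15.9 CPM in EGLN3 libraries and 20.8, 24.3 and 27.1 CPM in controls. NDUFAF6 had 30.3, 24.7 and 25.7 CPM in EGLN3 libraries and 22.4, 24.2 and 27.1 CPM in controls. NDUFAF7, a methyltransferase that acts on a core subunit, was among the steadiest genes of the chain, with 25.3, 24.4 and 26.0 CPM in EGLN3 libraries and 25.4, 23.0 and 24.5 CPM in controls.

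Complex II, which also works in the citric acid cycle, had a median of 0.00 over its 4 genes. SDHC was at 101, 97.6 and 97.1 CPM in EGLN3 libraries and 92.6, 102 and 101 CPM in controls, a log2 fold change of 0.00 (SE 0.12). SDHA had 170, 127 and 123 CPM in EGLN3 libraries and 145, 170 and 162 CPM in controls, a log2 fold change of -0.18 (SE 0.17). SDHB had 61.8, 38.3 and 39.4 CPM in EGLN3 libraries and 36.9, 50.5 and 52.8 CPM in controls. Replicate 1 was the highest EGLN3 library for all 3, and the groups overlapped.

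Complex III had a median of -0.03, with 3 genes positive and 7 negative. Its electron-carrying members are CYC1 and the Rieske iron-sulfur protein UQCRFS1. CYC1 had 500.0, 296 and 247 CPM in EGLN3 libraries and 333, 439 and 463 CPM in controls, a log2 fold change of -0.24 (SE 0.29). UQCRFS1 had 178, 113 and 111 CPM in EGLN3 libraries and 96.6, 132 and 152 CPM in controls, a log2 fold change of 0.08 (SE 0.25). CYCS, the soluble carrier between complexes III and IV, had 382, 270 and 249 CPM in EGLN3 libraries and 241, 310 and 332 CPM in controls, a log2 fold change of 0.03 (SE 0.21). In each of these 3 genes EGLN3 replicate 1 was above all controls.

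Complex IV, the site of oxygen reduction, had a median of -0.02 over the 13 genes tested. COX8A had 176, 70.9 and 43.4 CPM in EGLN3 libraries and 69.1, 94.0 and 131 CPM in controls. Its EGLN3 libraries covered the whole range of the controls and more, so the log2 fold change of -0.02 carried an SE of 0.52. COX7B had the largest positive value of the complex, 0.16 (SE 0.26), and COX4I1 the largest negative one, -0.13 (SE 0.33). COX7A2L, a supercomplex assembly factor, had 74.8, 53.8 and 55.0 CPM in EGLN3 libraries and 57.4, 65.6 and 72.2 CPM in controls.

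Complex V had a median of -0.03, with 7 genes positive and 11 negative. ATP5F1B had 868, 747 and 698 CPM in EGLN3 libraries and 705, 862 and 855 CPM in controls. ATP5F1A, the alpha subunit of the same catalytic head, had 260, 216 and 203 CPM in EGLN3 libraries and 235, 274 and 252 CPM in controls, a log2 fold change of -0.17 (SE 0.15). It was the only gene of the chain whose groups separated when CPM was computed from raw library totals. EGLN3 was then the lower by a narrow margin, at 238, 227 and 215 CPM against 240, 269 and 244 CPM in controls. The share of all tested genes that separate on that scale was not counted. ATP5IF1 (chr1:28236109-28246906, GRCh38) inhibits the enzyme when it would run backwards and consume ATP. It had 134, 63.6 and 44.6 CPM in EGLN3 libraries and 76.1, 110.5 and 115.8 CPM in controls. That gave the largest negative estimate of the chain, -0.32 (SE 0.41, adjusted p = 1.0, edgeR), with EGLN3 replicate 1 above every control and the other two EGLN3 libraries below every control.

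**Figure D2:**
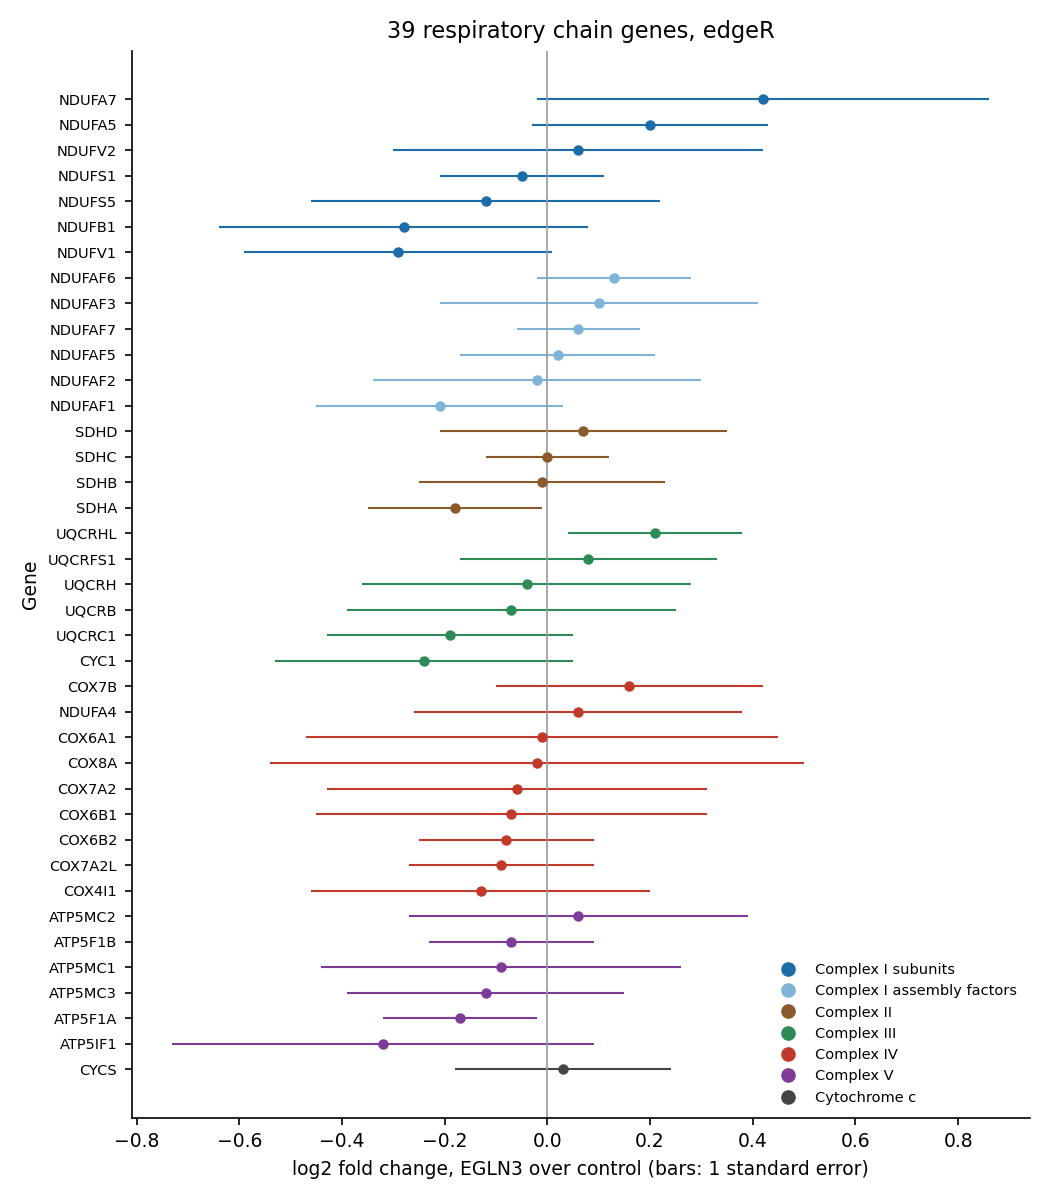
Log2 fold change of EGLN3 over control libraries for 39 genes of the chain, coloured by complex, with bars of 1 standard error from edgeR (3 libraries per group). No value passed the test, and the estimates lie between -0.32 and 0.42.

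The larger of the within-group ranges exceeded the difference between groups for all 92 tested genes. The median of the larger within-group range was 1.07 on the log2 scale, and the median size of the group difference was 0.12. The direction of the median therefore rested on single libraries. Without EGLN3 replicate 1 it was -0.40, with 86 of 92 genes lower in EGLN3. In that edgeR fit 21 of the 92 had an unadjusted p under 0.05, against 1409 of all 16129 genes tested, and none of the chain passed adjustment. EGLN3 replicate 1 also had the least EGLN3 of its group, at 481 CPM against 1640 and 1717 CPM. Within the EGLN3 group the library difference and the level of EGLN3 cannot be told apart. Without EGLN3 replicate 3, the library whose label and protocol disagree on the plasmid time, the median was 0.15, and without EGLN3 replicate 2 it was 0.08. Without control replicates 1, 2 and 3 it was -0.20, 0.01 and 0.12.

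**Figure D3:**
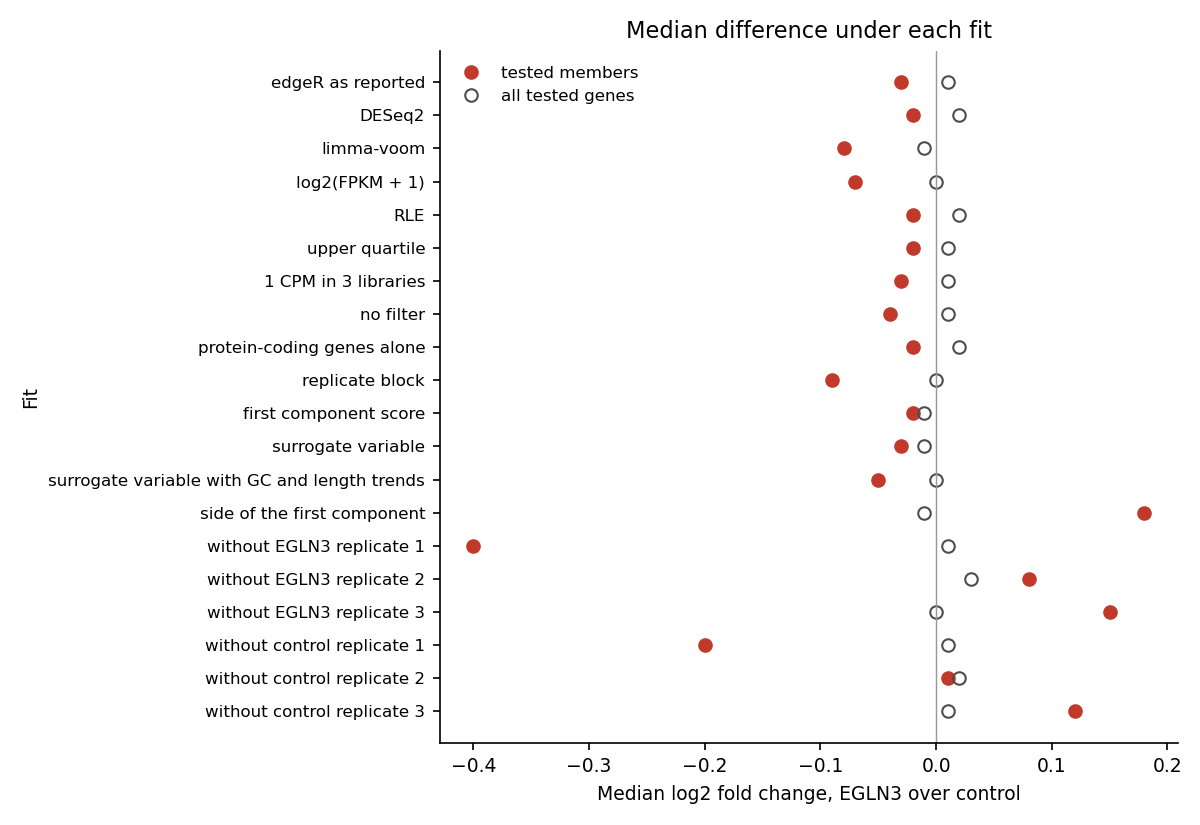
Median log2 fold change of EGLN3 over control, for the tested genes of the chain (filled) and for all tested genes (open), under each fit. The chain's median moves between -0.40 and 0.18 with the libraries and terms in the fit, and the median of all genes stays between -0.01 and 0.03.

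Across libraries the chain moved as a block. As median deviation from each gene's own mean, on the log2 scale, it stood at 0.58, -0.23 and -0.50 in EGLN3 replicates 1 to 3 and at -0.35, 0.15 and 0.34 in control replicates 1 to 3. This is the order of the libraries on the principal component that was computed without these genes. EGLN3 replicate 1 was the highest of the 6 libraries for 81 of 92 genes (88.0%), against 31.6% of all tested genes. EGLN3 replicate 3 was the lowest for 62 (67.4%), against 27.1% of all tested genes. The movement was not limited to the chain. On lists described below, EGLN3 replicate 1 was highest for 16 of 19 electron supply and carrier genes and 27 of 43 outside assembly factors. It was also highest for 10 of 13 subunits encoded by mitochondrial DNA, but for 3 of 12 regulators and 2 of 7 genes linked to HIF. Summed over the 101 genes, the chain took 13223, 7925 and 6910 CPM in EGLN3 libraries and 7527, 10267 and 11319 CPM in controls. The means were 9353 ± 3390 CPM for EGLN3 and 9704 ± 1957 CPM for control (SD, n = 3 each).

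**Figure D4:**
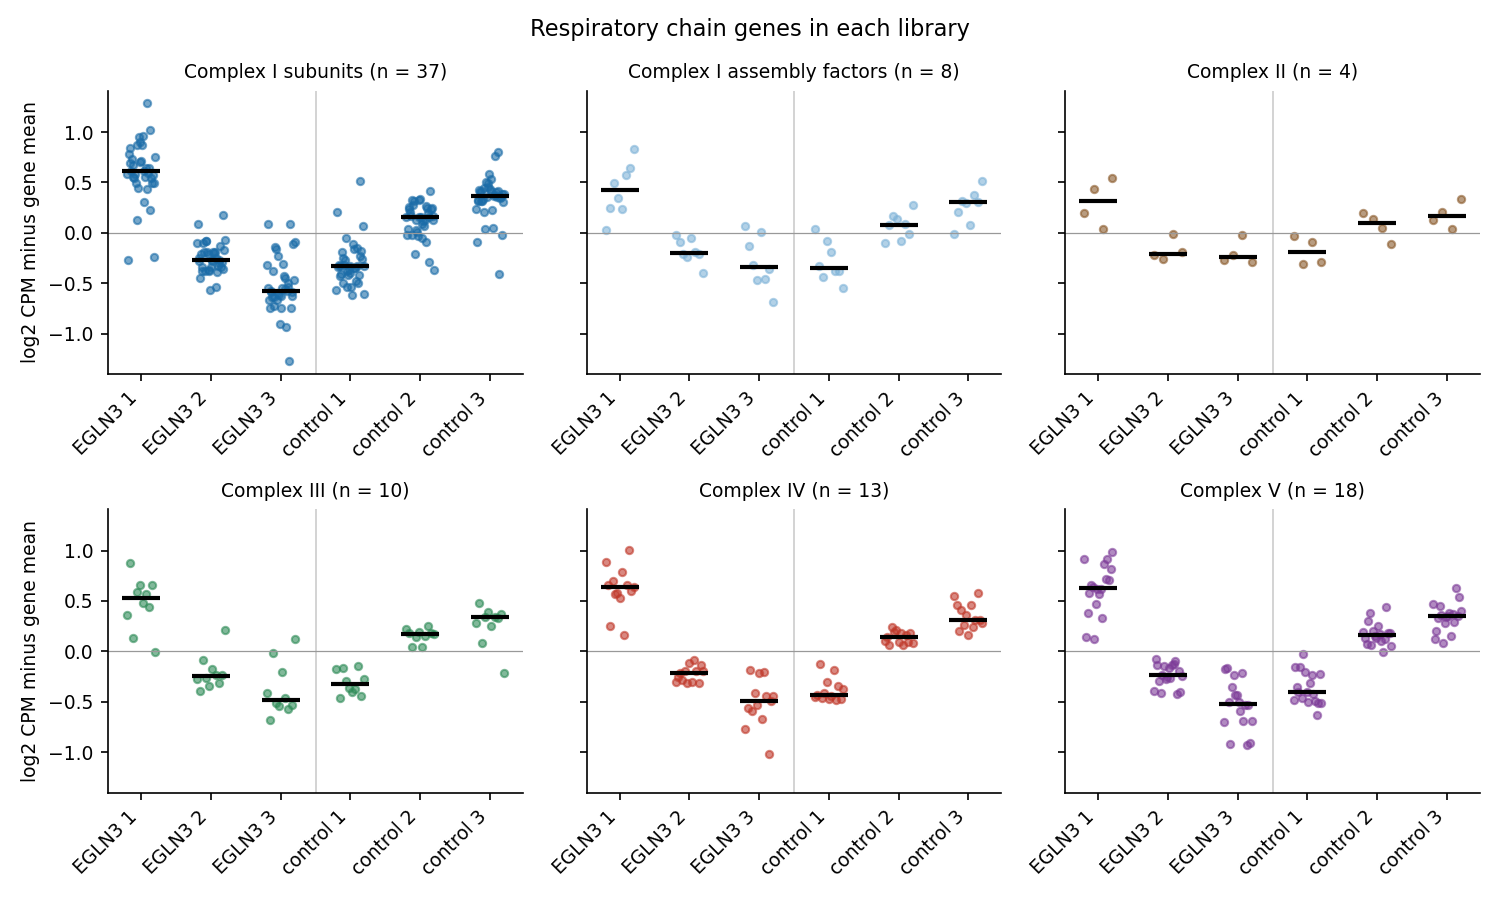
Deviation of each tested gene from its own mean, as log2 CPM, in each library by complex, with the 3 EGLN3 libraries on the left and the 3 controls on the right of each panel (points are genes, black bars medians). In every panel EGLN3 replicate 1 has the highest median, and the groups interleave.

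The size of this movement differed between complexes. The median ratio of EGLN3 replicate 1 to EGLN3 replicate 3 was 2.30 for complex I subunits, 2.03 for complex III, 2.14 for complex IV and 2.22 for complex V. It was 1.48 for complex II and 1.76 for the complex I assembly factors, and 0.991 over all tested genes. Within complex V it was 1.45 for the 5 subunits of the catalytic F1 head and 2.35 for the 12 of the membrane part and stalks. The 5 head subunits were not alike, at 1.28, 1.24 and 1.45 for ATP5F1A, ATP5F1B and ATP5F1C but 3.06 and 2.10 for ATP5F1D and ATP5F1E. ATP5PB of the stalk was at 1.47. The same ratio between control replicates 3 and 1 was 1.62 over the chain and 1.00 over all tested genes. Both ratios were above 1 for 86 of 92 genes (93.5%), against 42.1% of all tested genes. The 6 exceptions were NDUFS1, NDUFV2, NDUFA13, NDUFAF7, UQCRHL and ATP5S.

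Shorter transcripts moved more. Among the 31 genes of the chain with principal transcripts of 305 to 711 bases the median ratio of EGLN3 replicate 1 to EGLN3 replicate 3 was 2.36. It was 2.22 for the 30 genes of 712 to 1366 bases and 1.55 for the 31 longer ones. Across the 92 genes the ratio had a Spearman correlation of -0.57 with transcript length and 0.33 with GC content. Across all tested genes the same correlations were -0.63 (n = 12791) and 0.37 (n = 15719). The genes share the same libraries and are not independent replicates. The part of length and of GC content in the movement of the chain was not tested.

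**Figure D5:**
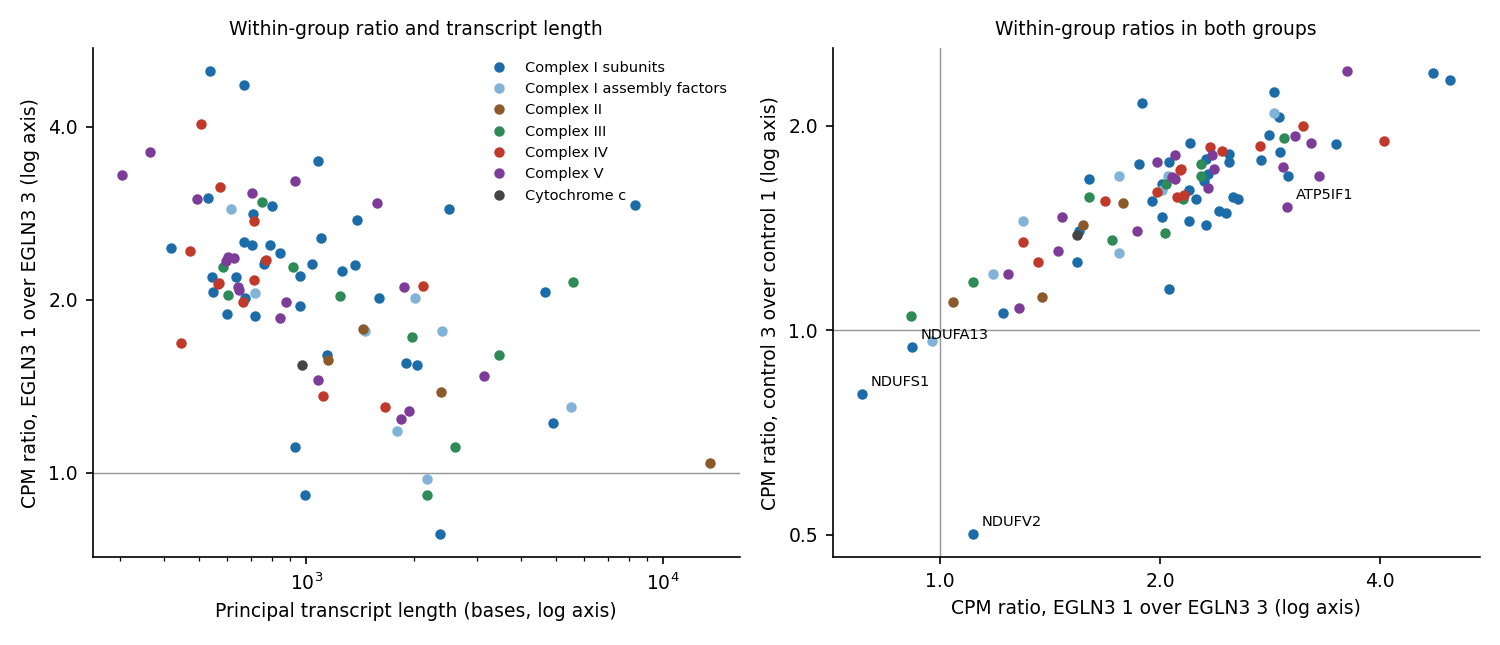
Left, CPM ratio of EGLN3 replicate 1 to EGLN3 replicate 3 against principal transcript length, both on log axes, for the tested genes of 5 complexes and cytochrome c. Right, the same ratio against the ratio of control replicate 3 to control replicate 1, where most genes lie above 1 on both axes and NDUFS1, NDUFA13 and NDUFAF7 lie below 1 on both.

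When 1 term for this library difference was added to the model, standard errors fell and some genes of the chain passed, all lower in EGLN3. With a surrogate variable estimated from the same counts, 5 of 92 were called (ATP5IF1, CYC1, NDUFA12, NDUFS6 and NDUFV1), against 4.76% of all tested genes. With GC and length trends also removed, 8 of 92 were called (ATP5F1A, ATP5IF1, ATP5MC3, NDUFA12, NDUFB1, NDUFS6, NDUFV1 and UQCRB), against 0.986% of all tested genes. With the score on the principal component as the term, 4 of 92 were called (ATP5IF1, CYC1, NDUFS6 and NDUFV1), against 4.63% of all tested genes. The share of the chain called is near that of all genes in the first and the last of these fits and above it in the second. With the side of the component as the term none was called, the median was 0.18 and 78 of 92 were positive.

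ATP5IF1, NDUFS6 and NDUFV1 were called in each of the 3 fits with a continuous term. Those 3 terms place the 6 libraries in the same order, so the fits are close to each other and are not separate support. For ATP5IF1 the log2 fold change was -0.37 (SE 0.08, adjusted p = 0.0177, edgeR with the surrogate variable). For NDUFV1 it was -0.29 (SE 0.05, adjusted p = 0.00169) in the same fit. For NDUFS6, an accessory subunit that carries zinc, it was -0.28 (SE 0.06, adjusted p = 0.00919). With the side of the component as the term the values were -0.12 for ATP5IF1, -0.11 for NDUFV1 and 0.03 for NDUFS6, none of them called. These estimates rest on 6 libraries with 1 more term, and were not recomputed with libraries left out.

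Genes around the chain gave the same picture of no call, as 0 of the 94 tested genes on 5 lists outside the rule passed in edgeR. Of 43 tested rows for assembly factors outside the rule, 19 were positive and 24 negative, with a median of -0.01. Of 19 genes for electron transfer flavoproteins, coenzyme Q synthesis, mitochondrial carriers and the outer-membrane channels VDAC1, VDAC2 and VDAC3, 3 were positive and 16 negative, with a median of -0.05. Of 7 tested genes linked to HIF, 6 were positive and 1 negative, with a median of 0.06, and the pyruvate dehydrogenase kinase PDK1 had 11.5, 14.0 and 16.2 CPM in EGLN3 libraries and 14.3, 12.6 and 12.9 CPM in controls.

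Of 12 regulators of nuclear respiratory genes, 4 were positive and 8 negative, with a median of -0.04. Over the 5 lists the groups separated in CPM for 5 of 94 genes (5.32%), against 6.26% of all tested genes, a share near the background. These were GABPB1, COX11 and MXI1 with EGLN3 the higher and POLRMT and COQ6 with EGLN3 the lower, named after their values were seen, and 2 of them, GABPB1 and POLRMT, are among the 12 regulators. GABPB1, a partner of the ETS factor GABPA whose motif is shown above, had 34.5, 35.3 and 35.0 CPM in EGLN3 libraries and 29, 29.6 and 29.1 CPM in controls. Its log2 fold change was 0.26 (SE 0.11, unadjusted p = 0.0571, adjusted p = 1.0, edgeR). POLRMT, the mitochondrial RNA polymerase, had 82.3, 70.7 and 65.4 CPM in EGLN3 libraries and 86.5, 97.0 and 86.1 CPM in controls, a log2 fold change of -0.30 (SE 0.14, unadjusted p = 0.0679, adjusted p = 1.0, edgeR). NRF1 had 14.2, 12.3 and 10.7 CPM in EGLN3 libraries and 12.9, 12.1 and 13.4 CPM in controls. TFAM, which packages mitochondrial DNA, had 81.5, 97.2 and 98.9 CPM in EGLN3 libraries and 91.2, 78.9 and 89.2 CPM in controls, and both of these overlapped. With the surrogate variable as a term, 3 of the 94 genes on these lists were called higher in EGLN3 (GABPB1, HIGD1A and MT-ND4L) and 4 lower (POLRMT, SLC25A6, LONP1 and UQCC3), against 4.76% of all tested genes in either direction. GABPB1 then had a log2 fold change of 0.26 (SE 0.07, adjusted p = 0.0386, edgeR) and POLRMT one of -0.30 (SE 0.06, adjusted p = 0.00679, edgeR), and with GC and length trends also removed none of the 94 was called.

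The 13 subunits encoded by mitochondrial DNA were not called either, with 9 positive, 4 negative and a median of 0.03. They summed to 67183, 47049 and 45473 CPM in EGLN3 libraries and 45016, 47385 and 59431 CPM in controls. EGLN3 replicate 1 was the highest library for 10 of the 13. The nuclear sum was 0.197, 0.168 and 0.152 of the mitochondrial sum in EGLN3 libraries and 0.167, 0.217 and 0.190 of it in controls, so the balance of the 2 genomes overlapped between the groups.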

How the data were processed

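RNA sequencing of 3 EGLN3 and 3 control libraries of NCI-N87 was grouped by the sample titles. The deposited counts are whole numbers per gene, and the authors' FPKM values in the same table equal count over gene length and 1 factor per library. Per the submitters' processing notes, the tools were featureCounts 1.5.0-p3, HISAT2 2.0.5 and DESeq2 1.20.0, without a stated role, and the build was hg38. Whether counting used strand was not given in the sources used here, so reads of overlapping genes on opposite strands may not be separated. All 58735 genes had the coordinates and merged exon length of GENCODE release 29.

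The members and lists were chosen with earlier results of these data known. Counts were tested with edgeR 4.0.16 in R 4.3.3, with TMM scaling, filterByExpr and robust quasi-likelihood. Benjamini-Hochberg adjustment ran over 15726 genes with a threshold of 0.05. The code was checked on simulated counts with a smaller spread and without the library difference. That check therefore does not measure power or error in these data, where the common dispersion was 0.0589. DESeq2 1.42.0, limma 3.58.1 and sva 3.50.0 gave alternatives, with log2(FPKM + 1) for limma on FPKM. With 3 libraries against 3, no exact permutation test can go below p = 0.1. Library pairs within a group differed by more than counting noise (chi-square per degree of freedom 8.07 to 104), so none was taken for a duplicate deposit, which does not show that they were separate cultures. Named genes were, per complex, the 4 with the smallest p, the highest and lowest level, preset isoform pairs, the catalytic subunits and ATP5IF1, NDUFV1, UQCRB and ATP5F1A, and genes beyond these are named as called in an alternative or for a value shown. NDUFV1, UQCRB and ATP5F1A were set because an earlier account of these same data named them. Of other lists the symbol SCO2 occurs in 2 rows.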

Additional observations from a re-analysis of the deposited data

How the results depend on the processing

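The count of 1 gene called among all genes, EGLN3, became 0 with limma-voom, with limma on log2(FPKM + 1) with or without a filter, and with the replicate number as a block, and ranged from 0 to 1 when libraries were left out one at a time. It was 728 with the principal component score, 749 with the surrogate variable and 155 with the surrogate variable and GC and length trends. For EGLN3 itself the log2 fold change was 10.75, 7.12, 7.12 and 10.83 in the 4 fits that lost its call, and 10.73 to 11.41 with libraries left out, where the call held only without EGLN3 replicate 1. Called genes of the chain numbered 0 in all alternatives other than 4, 5 and 8 with the score, the surrogate variable, and the surrogate variable with trends. Genes of the other lists called were 0 except 5 with the score and 7 with the surrogate variable. With raw library totals, 1 gene of the chain, ATP5F1A, separated between groups, by a narrow margin and without a count over all genes to set beside it. The median level was 60.5 per kilobase of principal transcript in place of 25.1 FPKM, since the lengths are shorter. Of 816 alternative estimates for 39 named genes, 94 differed in sign with neither value called and 12 gained a call. Sizes also depended on single libraries, as the chain's median went from -0.03 to -0.40 without EGLN3 replicate 1. Same-numbered replicates did not deviate together (r = -0.793, -0.176 and -0.674), and the numbers were not used to pair the libraries. These correlations cannot show whether same-numbered libraries were handled together, since the library difference that crossed the groups weighs on all of them. With the replicate block the chain's median was -0.09 with 0 calls. Precision is limited by 3 libraries a group and a median within-group range of 1.07 on the log2 scale.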
